A study of Homo sapiens with 4 samples.

Results

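Nucleotide excision repair (NER) was followed through 10 of its genes in a genome-wide CRISPR-Cas9 knockout screen: *DDB2* and *ERCC8*, which encode the repair receptors of CUL4 ubiquitin ligases, and the excision factors *ERCC6*, *XPC*, *XPA*, *ERCC1*, *ERCC4*, *ERCC5*, *RAD23B* and *CETN2*. The genes were taken by symbol from the sgRNA count table, where all 10 were present with 4 sgRNAs each, so that 10 of 19112 genes and 40 of 77441 sgRNAs are described. The screen was done in A549, a human lung adenocarcinoma cell line, carrying the Brunello library, a pool of sgRNAs that each aim Cas9 at a single gene and are then read as the barcode of the cells they edited. Transduced cells were selected with puromycin and then kept for 3 weeks in 4 µM HQ461, a molecular glue that brings CDK12 to the ligase adaptor DDB1, or in the vehicle, 0.1% DMSO. The labels name 2 biological replicates per condition, but the table holds 1 column per condition, which may be their sum or 1 of them, with 16127620 counts for HQ461 and 14428845 for DMSO. No difference between conditions can thus be set against the spread of replicates, and the intervals given here cover counting error only, since PCR reads are not independent molecules.

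*DDB2* was chosen by its low HQ461 to DMSO value in this same screen, and the other genes were chosen by pathway with that contrast known, to see whether the low value was shared. All values are accordingly descriptions, and no test was made on them. Counts were scaled by the median ratio of the columns (multipliers of 1.2 for HQ461 and 0.833 for DMSO). The log2 fold change of an sgRNA compares scaled counts with HQ461 over DMSO after adding 1, and that of a gene is the median over its sgRNAs. Values are relative to the bulk of the library: when total counts set the scale, the median of all genes was -0.70 rather than -0.02. Neither the sequences nor the cut sites of these sgRNAs were used here.

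NER removes bulky, helix-distorting lesions such as the photoproducts of ultraviolet light and some drug adducts. In global genome repair, DDB2 binds the lesion together with DDB1 and hands it to XPC, which is held by RAD23B and CETN2. In transcription-coupled repair, a stalled RNA polymerase II is recognized by ERCC6 (CSB), which recruits ERCC8 (CSA). Both routes then use TFIIH to open the DNA, XPA to verify the damage, and the nucleases ERCC1-ERCC4 (XPF) and ERCC5 (XPG) to cut out the damaged strand. DDB2 and ERCC8 are both DDB1 CUL4 associated factors (DCAFs), WD40-repeat proteins that dock on DDB1 and present substrates to the CUL4-RBX1 ligase.

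The sgRNAs against *DDB2* were almost completely lost with HQ461. With DMSO, the sgRNAs numbered 4601, 4603, 4602 and 4600 in the table had 128, 121, 115 and 103 counts. With HQ461 the same sgRNAs had 0, 0, 3 and 1 counts. Every *DDB2* sgRNA was thus close to the others with DMSO and at or near 0 with HQ461, and the columns do not overlap. In sum, 467 counts became 4, where 324 would be found had the sgRNAs kept their place relative to the median sgRNA. The summed scaled counts were 81.0-fold lower (95% exact Clopper-Pearson interval 31.4 to 299). The gene log2 fold change was -5.99, with single sgRNAs from -6.75 to -4.39. For the sgRNAs at 0, a floor of 3 counts in the HQ461 column would put the scaled count 29.6-fold lower for 4601 and 28.0-fold lower for 4603. The lower ends of their exact 95% intervals were 23.7-fold and 22.4-fold. The sgRNA with 3 counts was 26.6-fold lower (8.88 to 131), and that with 1 count 71.5-fold lower (12.5 to 2850). As a share of all counts, the *DDB2* sgRNAs made up 0.00324% (0.00295% to 0.00354%) with DMSO and 2.48e-05% (6.76e-06% to 6.35e-05%) with HQ461.

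**Figure D1:**
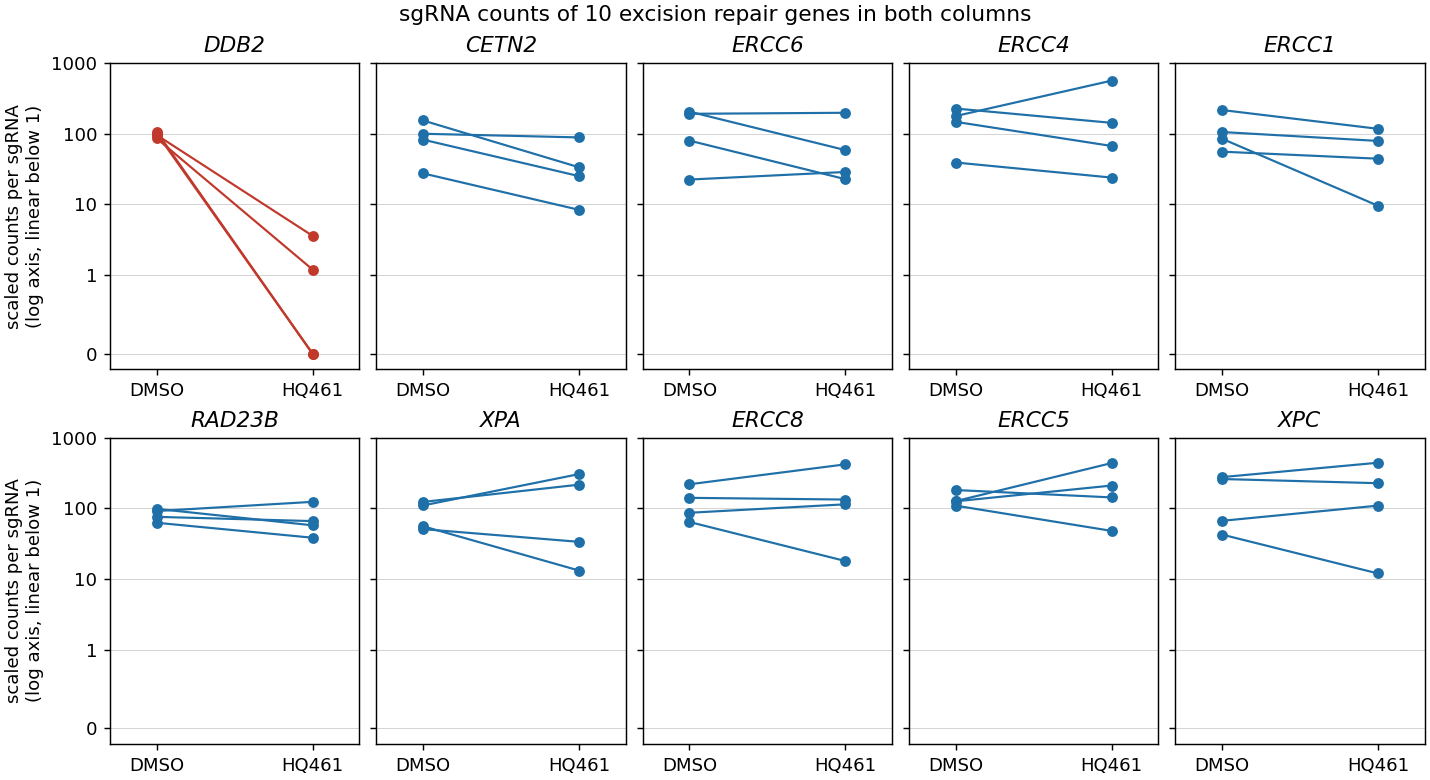
Scaled counts of the 4 sgRNAs of each of 10 NER genes (log axis, linear below 1) with DMSO and with HQ461, genes in order of their log2 fold change and each line 1 sgRNA. All 4 *DDB2* sgRNAs (red) end at 0 to 3.6 scaled counts, while the lowest sgRNA of the other genes ends at 8.4.

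Among all 19111 genes with a value, *DDB2* had the lowest log2 fold change, and *TOR1AIP2* followed at -5.75. The median gene was at -0.02, and the 5th and 95th percentiles were -1.19 and 1.33. In the DMSO column, the *DDB2* sgRNAs had a median of 118 counts, and all targeting sgRNAs one of 152. That column was read after 3 weeks in vehicle, and no column holds the abundance before treatment. Of 9556 other targeting sgRNAs with 100 to 130 counts with DMSO, 26 (0.272%) had 3 or fewer counts with HQ461 and 6 (0.0628%) had 0, against a median of 78 counts. A gene whose sgRNAs were all at least 2-fold lower with HQ461 was uncommon, at 0.549% of genes, and *DDB2* was the 1 such gene of the 10. None of the 10 had all sgRNAs at least 2-fold higher, as 1.52% of genes did. *DDB2* was the 1 gene whose 4 sgRNAs all had at least 100 counts with DMSO and at most 3 with HQ461, and with a minimum of 30 counts *TOR1AIP2* was the other. These limits, and the window of 100 to 130 counts, lie around the counts of *DDB2* itself, which was chosen for its low value. That it met them was thus fixed in advance.

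**Figure D2:**
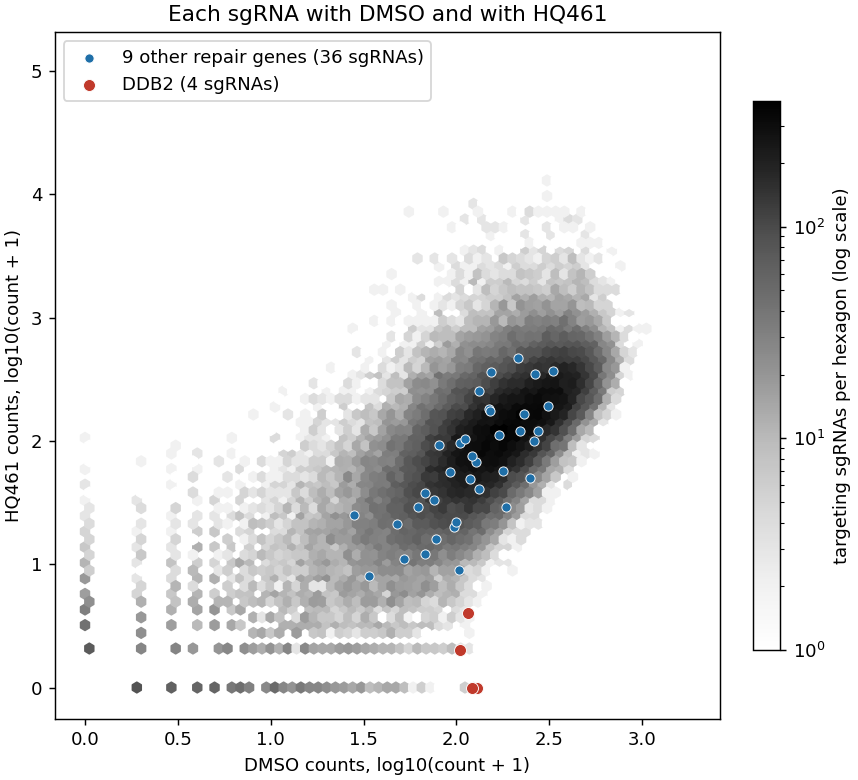
HQ461 counts against DMSO counts for every targeting sgRNA, both as log10(count + 1), with the number of sgRNAs per hexagon in grey. The 4 *DDB2* sgRNAs (red) lie at the lower edge, at 103 to 128 counts with DMSO and 0 to 3 with HQ461. The 36 sgRNAs of the other NER genes (blue) lie higher, at 7 or more counts with HQ461.

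The genes of the partners of DDB2 in damage recognition changed much less. *XPC*, which encodes the lesion sensor that takes over from DDB2, had 332, 312, 80 and 51 counts with DMSO and 368, 189, 91 and 10 with HQ461. Of its sgRNAs only the rarest with DMSO was at least 2-fold lower, and the gene log2 fold change was 0.24, with sgRNAs from -1.74 to 0.70. *RAD23B* encodes a ubiquitin-binding partner that stabilizes XPC. Its sgRNAs had 118, 110, 91 and 75 counts with DMSO and 48, 103, 55 and 32 with HQ461, a gene log2 fold change of -0.44. None of these 4 sgRNAs was 2-fold apart between the columns, and in sum they were 1.15-fold lower, with an interval (0.976 to 1.36) that covers no change. *CETN2*, which encodes centrin 2, the small calcium-binding subunit of the XPC complex that also works at centrioles and nuclear pores, was the lowest of these partners. Its sgRNAs had 185, 120, 99 and 33 counts with DMSO and 28, 74, 21 and 7 with HQ461. All 4 were lower and 3 were at least 2-fold lower, which gave a gene log2 fold change of -1.64 and a summed change of 2.33-fold lower (1.91 to 2.86). *CETN2* ranked 353 from the lowest of 19111 genes, or at 1.85%.

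The transcription-coupled genes were divided. *ERCC8*, the other repair DCAF, had 263, 169, 104 and 77 counts with DMSO and 349, 111, 95 and 15 with HQ461. Its sgRNAs lay on both sides of 0, from -1.78 to 0.93, the gene log2 fold change was 0.16, and in sum the sgRNAs were higher with HQ461, at a ratio of 1.34 (1.19 to 1.5). *ERCC6*, the polymerase-bound translocase that recruits ERCC8, had 247, 230, 96 and 27 counts with DMSO and 49, 165, 19 and 24 with HQ461. Its sgRNAs lay at -1.79 and -1.77 or at 0.05 and 0.34, and the gene value of -0.86 lies between them. The sum was 1.62-fold lower (1.4 to 1.88). The sgRNA ranges of *ERCC6* and *ERCC8* overlap.

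The later factors of damage verification and incision were also mixed. *XPA*, which encodes the scaffold of the incision complex, had 148, 132, 67 and 61 counts with DMSO and 180, 254, 11 and 28 with HQ461. The commoner sgRNAs were higher with HQ461 and the rarer ones lower, and the gene log2 fold change was 0.11. *ERCC5*, the nuclease that cuts 3' of the lesion, had 218, 152, 151 and 131 counts with DMSO and 119, 364, 175 and 40 with HQ461, a gene log2 fold change of 0.20. ERCC1 and ERCC4 form the obligate heterodimer that cuts 5' of the lesion and that also takes part in crosslink repair. *ERCC1* had 260, 127, 102 and 67 counts with DMSO and 98, 66, 8 and 37 with HQ461. All 4 sgRNAs of *ERCC1* were lower, 1 of them at -3.02 and the others from -0.88 to -0.32, with a gene log2 fold change of -0.64. *ERCC4* had 273, 214, 177 and 47 counts with DMSO and 119, 470, 56 and 20 with HQ461. Its gene log2 fold change of -0.68 was close to that of *ERCC1*, but the sgRNA at 1.66 turned its summed ratio to 1.35 (1.21 to 1.5), higher with HQ461, whereas that of *ERCC1* was 0.542 (0.460 to 0.636).

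In order from the lowest, the gene log2 fold changes were -5.99 for *DDB2*, -1.64 for *CETN2*, -0.86 for *ERCC6*, -0.68 for *ERCC4*, -0.64 for *ERCC1*, -0.44 for *RAD23B*, 0.11 for *XPA*, 0.16 for *ERCC8*, 0.20 for *ERCC5* and 0.24 for *XPC*. None of the 9 other genes had an sgRNA as low as the highest *DDB2* sgRNA, at -4.39, the nearest being the *ERCC1* sgRNA at -3.02. As *DDB2* was chosen for its low value, this gap is not independent of that choice. Among the 9 other genes, the sgRNA ranges overlapped in all 36 pairs, so their order is not set apart by the spread between sgRNAs. That spread, as an SD over 4 sgRNAs, ran from 0.55 for *RAD23B* to 1.54 for *XPA*, and its median over all genes was 0.96. At a 2-fold limit, 2 of 10 genes (*DDB2* and *CETN2*) were lower with HQ461 and 0 were higher, where 7.69% of all genes were lower and 9.01% higher. *DDB2* was chosen for its low value, and of the 9 other genes only *CETN2* was lower. Under scaling by total counts 6 of the 10 were at least 2-fold lower, but so were 32.1% of all genes, with 2.72% higher, and *XPA*, *ERCC8*, *ERCC5* and *XPC* then had values below 0. With the mean over sgRNAs in place of the median, *XPA* (-0.08), *ERCC8* (-0.13) and *XPC* (-0.14) were also below 0, and *ERCC5* was at -0.34 with its furthest sgRNA removed, so the sign of these 4 genes depends on the processing.

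Without *DDB2*, 11 of 36 sgRNAs (30.6%) were at least 2-fold lower and 3 (8.33%) at least 2-fold higher, against 17.9% and 19.5% of all targeting sgRNAs. Of the 9 genes, 6 had exactly 1 of 4 sgRNAs at least 2-fold lower, *ERCC6* had 2, *CETN2* had 3 and *RAD23B* had 0. The same count over all genes is not given here, so no pattern is read from it. Control sgRNAs without a target in the genome had log2 fold changes from -1.67 (1st percentile) to 2.92 (99th percentile). All 4 *DDB2* sgRNAs and 8 of the other 36 (22.2%) were below that range, as were 7.53% of all targeting sgRNAs. The controls had a median of 525 counts with DMSO and the NER sgRNAs one of 120.5, so the control range is that of sgRNAs counted more deeply.

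Beyond these 10, the wider pathway held genes on both sides. The lists were set with earlier results of the screen known, so their counts are not independent of it. Over 43 further NER genes in 5 lists, the median log2 fold change was -0.25, with 9 (20.9%) at least 2-fold lower and 5 (11.6%) at least 2-fold higher, beside 7.69% and 9.01% of all genes. Of 4 recognition partners, *UBE2N*, the E2 enzyme for K63-linked ubiquitin chains, was at -2.28 (161 counts with DMSO, 14 with HQ461). The sgRNAs of *UBE2N* ran from -5.79 to 0.26. *PARP1*, the damage sensor that makes poly(ADP-ribose), was at 1.00, with sgRNAs as far apart as -1.60 and 6.73. The 7 transcription-coupled partners had a median of -0.05. Among them *UVSSA*, which brings TFIIH to the stalled polymerase, was at -0.25, *ELOF1* at -0.05 and *STK19* at 0.09. The exception was *XAB2*, a splicing and repair factor, at 1.67, with all 4 sgRNAs at least 2-fold higher but 83 counts in sum with DMSO.

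TFIIH, the complex that links NER with transcription initiation, had 11 genes with a median of -0.52, which was -0.11 by summed counts and -1.20 when total counts set the scale. The median of all genes was -0.02, and in these 2 alternatives 0.22 and -0.70. Its kinase *CDK7* (-1.64), its repair helicase *ERCC2* (-1.53) and its small subunit *GTF2H5* (-1.23) were at least 2-fold lower. The sgRNAs of *ERCC2* had 56 counts in sum with DMSO and those of *CDK7* had 94, so these values rest on few reads, whereas those of *GTF2H5*, a subunit with a main role in repair, had 762 with DMSO and 229 with HQ461. *GTF2H2C*, at 1.32, is a near-identical copy of *GTF2H2*, at -0.07, and sgRNAs designed for either may cut both, so the values of this pair are uncertain. The other helicase, *ERCC3*, was at 0.35, but its 3 sgRNAs ran from -1.80 to 1.23 and had 83 counts in sum with DMSO.

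The 3 genes of RPA, which binds the opened single strand, had a median of -0.64, which was -1.57 with the furthest sgRNA of each gene removed. *RPA2* was the lowest of them at -1.63, with sgRNAs from -2.25 to 2.09. Of 18 genes of gap filling, which DNA replication also uses, 4 were at least 2-fold lower, namely *RFC5* (-2.09), *RFC1* (-1.57), *POLD2* (-1.46) and *POLE3* (-1.35), and 2 were higher, *RFC4* (2.08) and *LIG3* (1.14). The clamp loader subunits RFC4 and RFC5 thus differed in sign, at 31 counts in sum with DMSO for *RFC5*. *LIG3* lies on chromosome 17, where the median gene was at 0.97. The 9 genes of translesion synthesis, which lets polymerases pass unrepaired lesions, had a median of -0.27, which turned to 0.05 by summed counts. The median of all genes was -0.02 and 0.22 in these settings, so the list median was below it in both. *UBE2A*, which acts with RAD18 in PCNA ubiquitination, was the 1 gene at least 2-fold lower, at -1.22, and *POLH*, the polymerase that copies past ultraviolet lesions, was at -0.91, but its sgRNAs ran from -1.61 to 3.23 and their sum was higher with HQ461 (976 counts) than with DMSO (454).

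**Figure D3:**
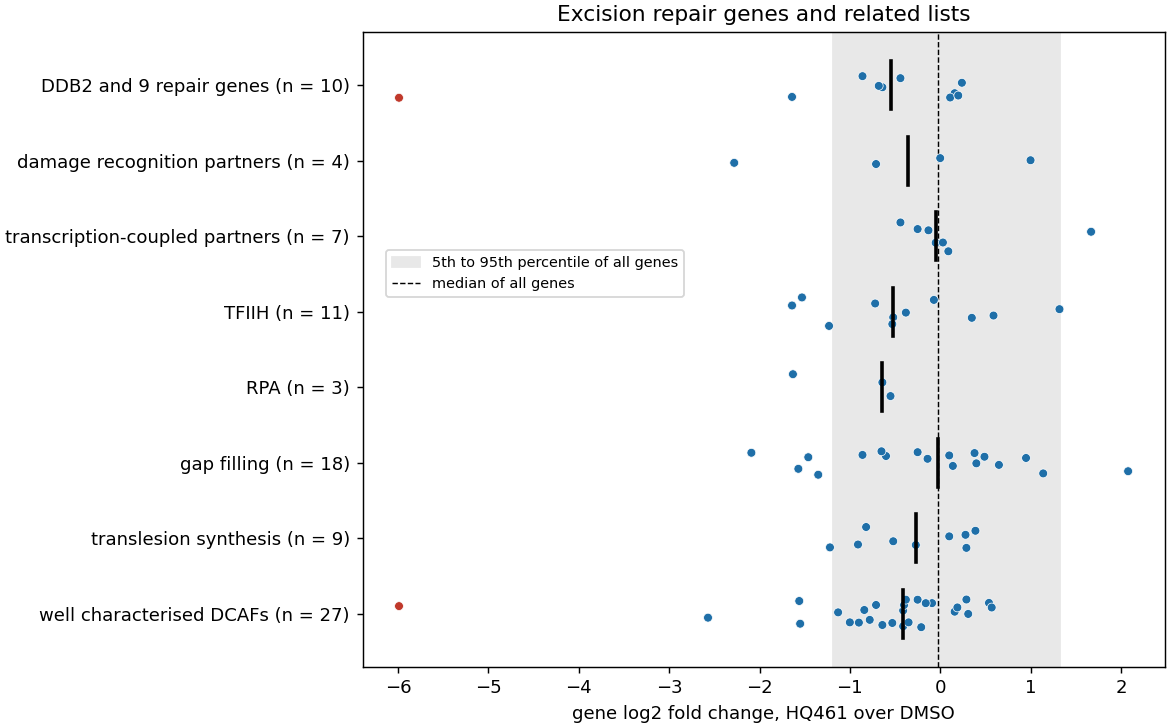
Gene log2 fold changes, HQ461 over DMSO, for the 10 NER genes (top row), further NER lists, translesion synthesis and DCAFs; each point is 1 gene, *DDB2* is red (it also stands among the DCAFs, as does *ERCC8*), thick bars are list medians and the grey band runs from -1.19 to 1.33, the 5th to 95th percentile of all genes. List medians lie from -0.64 to -0.02, and *DDB2* at -5.99 is far to the left of the next lowest gene shown, at -2.57.

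DDB2 works as a heterodimer with DDB1, and the partners stood at opposite ends of the screen: the 4 sgRNAs of *DDB1* had 118 counts with DMSO and 70253 with HQ461, a gene log2 fold change of 10.25. All 5 core genes of the ligase were higher, the lowest being *CUL4A* at 2.78. The receptors that the ligase serves were not. Of 27 well characterised DCAFs, 5 were at least 2-fold lower and 0 at least 2-fold higher, with a median of -0.41, beside 7.69% and 9.01% of all genes. Without *DDB2*, chosen for its low value, and *ERCC8*, 4 of 25 were lower. Besides *DDB2* the lower DCAFs were *DCAF8* (-2.57), the autophagy regulator *AMBRA1* (-1.56), the bromodomain protein gene *PHIP* (-1.55) and *WDTC1* (-1.13). Of the 27, 21 were below 0, as were 51.3% of all genes, whereas the other repair receptor, *ERCC8*, was at 0.16. No other DCAF had all sgRNAs as low as those of *DDB2*: the sgRNAs of *DCAF8*, the next lowest, ran from -3.23 to -1.64, with 1245 counts in sum with DMSO and 170 with HQ461.

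The genes around *DDB2* had values well above its own. *DDB2* lies on the plus strand of chromosome 11 from 47214465 to 47239217 (GRCh38, GENCODE 44), on the short arm, and no other gene of the library that was placed overlaps it. The next library genes on the side of lower coordinates were *PACSIN3* at 0.66 and *ARFGAP2* at 0.22, and those on the other side *ACP2* at -0.50 and *NR1H3* at -0.66. Over 52 other library genes starting within 2 Mb, the median was -0.12, where that of chromosome 11 was 0.28 and that of all genes -0.02. Of these 52, 6 were at least 2-fold lower and 2 at least 2-fold higher, beside the 7.69% and 9.01% of all genes. The lowest of them was *NUP160*, a nuclear pore gene, at -2.93, with 95 counts in sum with DMSO. *AMBRA1*, a DCAF gene named above, starts at -0.818 Mb relative to *DDB2*.

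**Figure D4:**
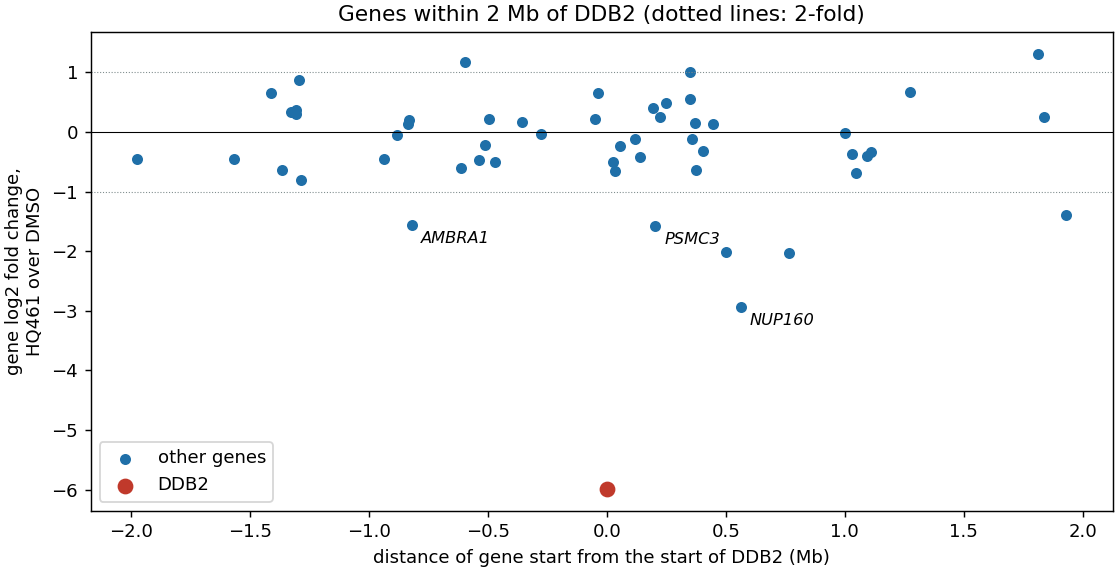
Gene log2 fold change, HQ461 over DMSO, of library genes against the distance of their start from that of *DDB2* in Mb, with dotted lines at 2-fold. *DDB2* (red) is at -5.99, and its 52 neighbours run from -2.93 to 1.31.

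The other NER genes lie on 8 further chromosomes, *ERCC8* on chromosome 5, *ERCC6* on 10, *XPC* on 3, *XPA* and *RAD23B* on 9, *ERCC1* on 19, *ERCC4* on 16, *ERCC5* on 13 and *CETN2* on X. The medians of their neighbours within 2 Mb ran from -0.34 around *XPC* to 0.42 around *ERCC8*. *CETN2* (152826994 to 152830757, minus strand) had 78 neighbours with a median of 0.03, against -1.64 for *CETN2* itself. *ERCC1* (45407334 to 45478828, minus strand) is the 1 gene of the 10 whose annotated span overlaps other library genes. It shares 3404 bases with *CD3EAP* (now *POLR1G*), a subunit gene of RNA polymerase I on the plus strand, which was at -1.70, with 254 counts in sum with DMSO and 59 with HQ461. It also shares 7185 bases with *FOSB*, at 0.12. Whether the *ERCC1* sgRNA at -3.02 cuts in a shared stretch was not tested.

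By the size of the change, the genes most like *DDB2*, among those with a median of at least 30 counts per sgRNA with DMSO, were *TOR1AIP2* (-5.75), *PPP6C* (-5.40), *RHOA* (-3.86), *EEF1E1* (-3.68) and *MEPCE* (-3.31). *TOR1AIP2*, which encodes a torsin activator of the endoplasmic reticulum, had 698 counts in sum with DMSO and 6 with HQ461, or 80.7-fold lower (36.9 to 221), an interval that covers the value of *DDB2*. *PPP6C*, the catalytic subunit of a protein phosphatase, had 322 and 2 counts, or 112-fold lower (30.7 to 927). For *EEF1E1* the summed change was 2.23-fold, since 1 of its sgRNAs kept 55 counts with HQ461. None of these 5 belongs to the NER lists.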

How the data were processed

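Reads of amplified sgRNA cassettes were counted by the authors with the count command of MAGeCK 0.5.9.2 (version from the submitters' processing notes), and the deposited table holds whole-number counts per sgRNA that are not normalized. The labels point 2 libraries to each column name, without stating whether the column sums both or holds 1 of them. Analysis used Python 3.11.15, numpy 2.4.6, pandas 2.3.3, scipy 1.17.1, matplotlib 3.10.9 and edgeR 4.0.16 (TMM factors only). After 273 sgRNAs at 0 in both columns were removed, 19111 genes had a value. Columns were scaled by median ratios, as MAGeCK does, which leaves the few very abundant sgRNAs of the HQ461 column without weight on the scale. No test was run, because the members were chosen on this contrast and each condition has 1 column. The members, the gene lists and the alternatives were chosen with earlier results of these data known. Named genes were the 10 members, list genes at least 2-fold apart, the 2 library genes on either side of *DDB2*, and the 5 genes with the lowest values among those with a median of 30 DMSO counts. Names outside this rule, such as *UVSSA*, *ELOF1*, *STK19*, *ERCC3*, *POLH*, *GTF2H2*, *NUP160*, *CD3EAP* and *FOSB*, were chosen after their values were seen, and some genes of the lists are not reported here. Ratios of summed counts carry 95% exact Clopper-Pearson intervals. Positions came from GENCODE 44 (GRCh38): 17761 genes were matched by symbol, 952 through an older symbol in RefSeq and 398 not at all. Scaling and fold changes were tested on simulated data, in which the largest change set was smaller than that of *DDB2*.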

Additional observations from a re-analysis of the deposited data

How the results depend on the processing

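Over 9 alternatives, the *DDB2* log2 fold change ran from -6.67 to -4.14, the latter with a pseudocount of 5, which by its construction pulls in values that rest on 0 to 3 counts. *DDB2* ranked lowest of all genes in 6 of them, at 2 with a pseudocount of 5 and with the mean over sgRNAs, and at 3 with the ratio of summed counts. The number of NER genes at least 2-fold lower, 2 in the report, was 6 under scaling by total counts, which added *ERCC6* (-1.54), *ERCC4* (-1.35), *ERCC1* (-1.33) and *RAD23B* (-1.12); that scaling lowers all genes, and 32.1% of genes were then lower (6138, against 1470) and 2.72% higher (520, against 1722). The number was 3 with a minimum of 30 scaled counts per sgRNA (*ERCC6* at -1.77), with the furthest sgRNA removed (*ERCC6* at -1.77) and with the mean over sgRNAs (*ERCC1* at -1.16), and 2 under the other 5. *CETN2* was at least 2-fold lower under all 9, from -2.29 to -1.22, and 0 of the 10 genes were at least 2-fold higher under any. Of all genes, 3.68% were lower and 18.1% higher by summed counts, and 12.2% were lower with the furthest sgRNA removed, against 7.69% and 9.01%. List medians moved too: over the 9 alternatives that of the recognition partners ran from -1.04 to 0.74 (-0.35 in the report's setting), transcription-coupled partners from -0.73 to 0.14 (-0.05), TFIIH from -1.20 to -0.11 (-0.52), RPA from -1.57 to -0.60 (-0.64), gap filling from -0.55 to 0.22 (-0.02), translesion synthesis from -0.94 to 0.05 (-0.27) and DCAFs from -1.06 to -0.31 (-0.41). The median of all genes moved as well, to -0.70 under scaling by total counts and 0.22 by summed counts, against -0.02 in the report's setting. The list ranges thus include a shift of the whole library, and all low ends but that of RPA came under total counts. No paired analysis was possible because each condition has 1 column, not split by replicate, and for the same reason leaving out a replicate was not run. The 4 HQ461 counts of *DDB2* limit how closely its change can be given.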
